A study of Mus musculus with 54 samples.

Results

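The genes described are 9 markers of the medium spiny neuron of the striatum, chosen by symbol, and they were looked up by the Ensembl identifier that the count files give. All 9 were found among the 54232 genes of each file, and all 9 passed the filter on low counts in both brain cohorts, where 24438 genes (aged brain) and 23194 genes (APPSWE cohort) were tested. They are the dopamine receptors Drd1 and Drd2, the adenosine receptor Adora2a, the neuropeptide precursors Penk, Tac1 and Pdyn, and the signalling genes Ppp1r1b, Rgs9 and Pde10a. The study treated mice with Cmpd60, an inhibitor of the histone deacetylases HDAC1 and HDAC2, and asked what it changes in the tissues of old mice and in the brain of a dementia model. Bulk RNA of 54 libraries was sequenced, of which 32 were brain. One cohort was of male BL6 mice of about 20 months, with 6 Cmpd60-treated and 6 vehicle-treated brains. The other was of male mice of 6 to 7 months, on a BL6 background, that carried the transgene of the APPSWE-1349 line (APPSWE below), a mutant human amyloid precursor gene, or were their littermates without it. It held 4 APPSWE brains with Cmpd60, 5 APPSWE brains with vehicle, 5 littermate brains with Cmpd60, 5 littermate brains with vehicle, and library s139, an APPSWE brain described below. Cmpd60 was given at 22.5 mg/kg by daily intraperitoneal injection for 14 days, and all mice of both cohorts were injected with either Cmpd60 or vehicle. The promoter that drives the transgene was not given in the sources used here, and neither was the part of the brain that was homogenized.

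Medium spiny neurons are the GABAergic projection neurons of the striatum and its main cell type. One class carries the dopamine receptor Drd1 and makes the peptides encoded by Tac1 (substance P) and Pdyn (dynorphin). The other carries Drd2 together with Adora2a, and makes the enkephalins encoded by Penk. Both classes share Ppp1r1b, which encodes DARPP-32, an inhibitor of protein phosphatase that protein kinase A switches on, Rgs9, which shortens the signal of G proteins, and Pde10a, a phosphodiesterase that breaks down cAMP and cGMP. In bulk RNA, fewer cells of a type and less RNA in each cell cannot be told apart.

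Between 25052335 and 57430113 reads per brain library were counted on genes. The APPSWE cohort differed in how many genes had at least 1 count, from 15044 to 24821, against 24939 to 28017 in the aged brains, and 5 of its libraries (s140, s141, s146, s152 and s155) were below 17000. Both this limit and the measure that follows were chosen after the data were seen. In those 5 libraries, from 3.14% to 11.2% of the 4044 genes with a median of 20 to 60 CPM (read counts scaled to an equal library size) were more than 2-fold away from that median, against 0.0495% to 0.346% in the other 15 libraries. Library s139 carries a vehicle label and a compound heading in the study's table, so it entered no comparison between groups unless stated. App, the mouse gene of the precursor, was at 1950 to 2385 CPM in the cohort with overlapping genotypes, so the deposited counts gave no check of the transgene. With s139 counted by its vehicle label, there were 71 pairs of brain libraries of the same group. All of them differed by more than counting noise, with a chi-square of 4.48 to 150.9 per degree of freedom.

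The 9 genes were well expressed in every brain library, and most of them were far lower in kidney and heart. To compare genes with each other, CPM were divided by the exon length of each gene. On this scale Penk led in the aged brain with a median of 95.1 CPM per kb (range 70.7 to 148, 12 libraries), followed by Ppp1r1b at 80.9 (63.01 to 113) and Tac1 at 34.8 (27.5 to 46.9). Pde10a was at 15.1 (12.5 to 24.5). The remaining genes lay between 6.88 CPM per kb for Rgs9 and 10.9 for Adora2a, with ranges that overlapped, and Penk and Ppp1r1b also overlapped each other. The same 4 genes led in the APPSWE cohort, with medians of 130 for Penk, 103 for Ppp1r1b, 36.2 for Tac1 and 14.7 for Pde10a in 20 libraries.

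In the kidney, Ppp1r1b was the exception, with 46.1 to 112 CPM in 11 libraries. Adora2a reached 6.20 to 10.9 CPM there, Penk 1.99 to 8.48 CPM and Pde10a 0.955 to 7.59 CPM. Drd2 and Tac1 had no count in 10 of 11 kidney libraries, and Pdyn had none in 8. A count of 0 allows up to 0.0766 to 0.119 CPM in a kidney library, for counting error only. In the heart, Penk was at 6.58 to 19.3 CPM, Adora2a at 8.72 to 21.3 CPM and Ppp1r1b at 4.46 to 13.5 CPM. Drd1 reached at most 0.732 CPM and Rgs9 0.579 CPM in 11 heart libraries, and Pdyn had no count in 9 of them.

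**Figure D1:**
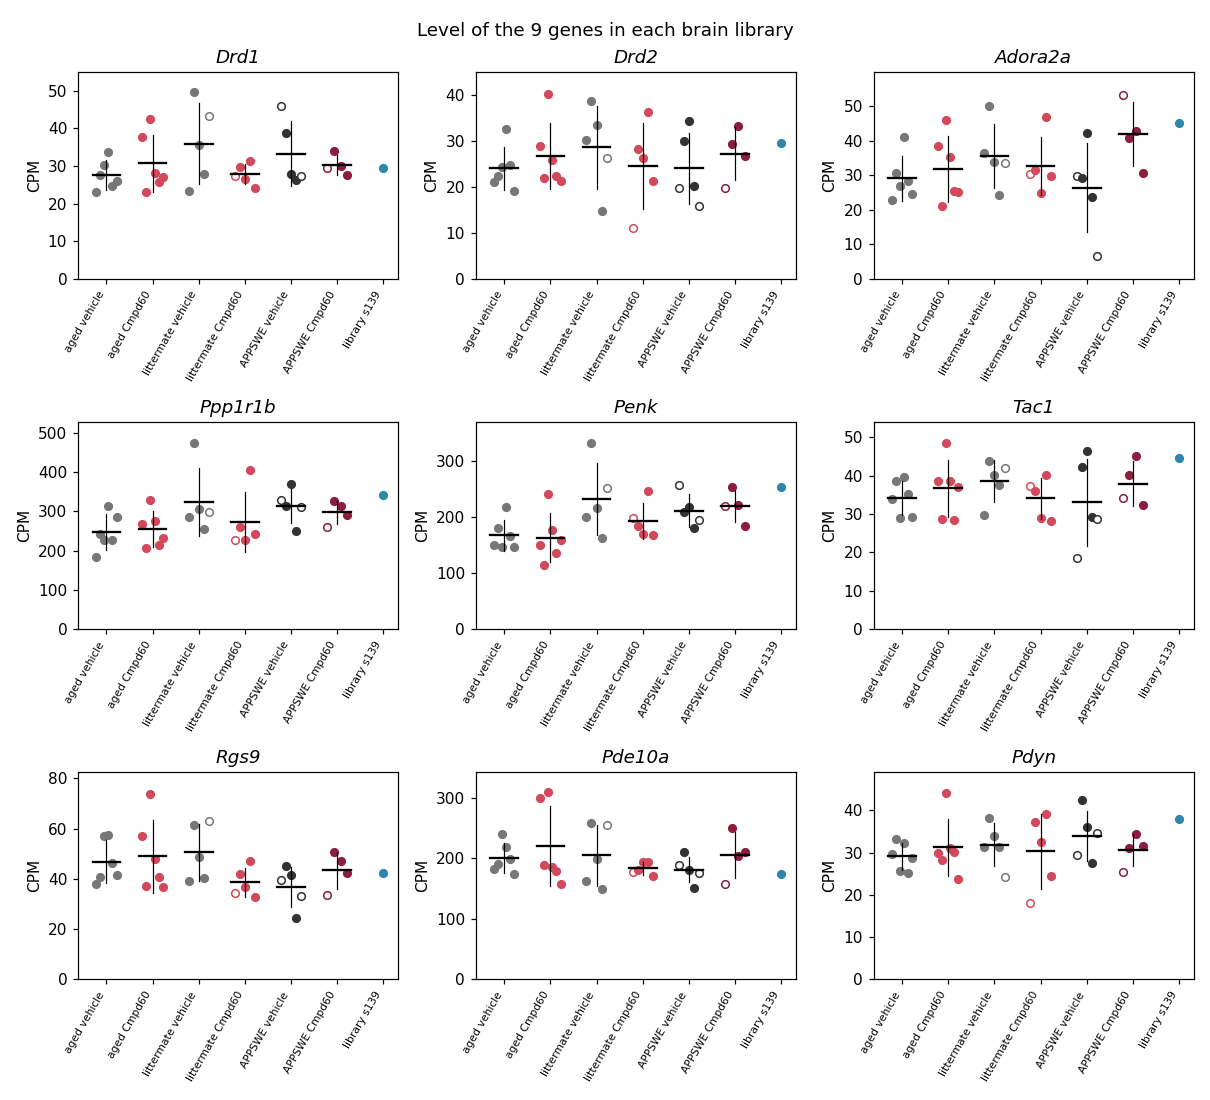
CPM of each of the 9 genes (vertical axis) in every brain library, by group (horizontal axis). Points are libraries, open points are the 5 libraries with fewer than 17000 genes detected, horizontal bars are means and vertical lines are 1 SD, and library s139 is shown on its own. Groups overlapped for each gene, and the open points include the lowest values of the APPSWE cohort for Drd2, Adora2a, Ppp1r1b, Tac1 and Pdyn. They also include its highest values for Adora2a and Rgs9.

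The promoters of 3 genes are shown, of which Drd1 and Tac1 belong to one neuron class and Drd2 to the other. These 3 and the motifs in capitals were chosen after the matches were seen. The windows run from 250 bases before to 50 after a transcription start of RefSeq, build GRCm38.p6, 5′ to 3′ on the strand of the gene. They lie at chr13:54055609-54055908 (minus strand, the first of 2 listed starts) for Drd1, chr9:49340153-49340452 (plus strand) for Drd2 and chr6:7554811-7555110 (plus strand) for Tac1. Capitals mark the letters CCGCCC, the core of the GC box of Sp factors, and TGACG, the half-site of the cAMP response element, on either strand, and their matches do not overlap in these windows.
Drd1: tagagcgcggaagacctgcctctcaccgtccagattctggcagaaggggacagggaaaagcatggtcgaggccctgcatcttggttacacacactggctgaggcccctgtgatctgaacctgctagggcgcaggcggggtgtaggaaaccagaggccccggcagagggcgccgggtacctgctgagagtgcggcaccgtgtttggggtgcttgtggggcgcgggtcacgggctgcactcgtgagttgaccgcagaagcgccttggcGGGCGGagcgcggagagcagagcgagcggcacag
Drd2: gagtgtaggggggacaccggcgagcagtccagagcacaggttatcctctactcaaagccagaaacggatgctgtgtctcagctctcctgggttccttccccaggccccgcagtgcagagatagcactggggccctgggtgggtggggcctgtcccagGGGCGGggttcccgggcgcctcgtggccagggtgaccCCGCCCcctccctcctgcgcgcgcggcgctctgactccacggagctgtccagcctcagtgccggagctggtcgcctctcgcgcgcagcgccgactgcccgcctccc
Tac1: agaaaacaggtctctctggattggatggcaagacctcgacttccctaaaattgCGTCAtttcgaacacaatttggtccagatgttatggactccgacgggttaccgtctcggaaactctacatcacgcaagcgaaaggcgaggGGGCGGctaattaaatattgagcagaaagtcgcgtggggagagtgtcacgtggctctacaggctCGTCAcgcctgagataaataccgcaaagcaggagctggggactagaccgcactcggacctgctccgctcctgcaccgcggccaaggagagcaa
RefSeq windows were found for 6 of the 9 genes, 9 windows in all, and none was used for Adora2a, Ppp1r1b and Penk. In all, 6 motifs were searched on both strands. CCGCCC was found in 7 of the 9 windows, in all but those of Pdyn, and in 35.7% of all 32851 promoter windows. TGACG was found in 1 of the 9 windows, that of Tac1, with 2 matches, and in 20.8% of all windows. The others were the full cAMP response element TGACGTCA (0 of 9 windows, 1.8% of all), the E box CACGTG (1 of 9, 7.2%), the letters CCCTCCCC (2 of 9, 10.8%) and the TATA box TATAAA (1 of 9, 13.6%). TGACG is contained in TGACGTCA. A match is a string of letters and was not tested as a binding site.

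Across the 12 aged brains, the 9 genes rose and fell together, by about as much as 2-fold between single brains. Each gene varied by 1.70-fold (Tac1) to 2.18-fold (Adora2a) between its lowest and its highest library. Library 35, a Cmpd60-treated brain, was the highest for all 9 genes, on average 1.49-fold above the mean of the cohort. Library 30, a vehicle-treated brain, was above the mean for all 9 genes by 1.22-fold on average, and libraries 34 (Cmpd60) and 27 (vehicle) were below it for all 9, at 0.823-fold and 0.858-fold. High and low brains were thus found in both treatment groups.

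The highest r was that of Drd2 and Rgs9, at 0.91 with rho = 0.85 (permutation p = 0.000140 and 0.000720, adjusted over 36 gene pairs 0.000840 and 0.00648), and it was 0.79 without 2 libraries. Drd1 and Drd2, which mark different neurons, correlated with a Pearson r of 0.87 and a Spearman rho of 0.76 across the 12 aged brains (permutation p = 0.000720 and 0.00617, adjusted 0.00259 and 0.0171). Without the 2 libraries farthest from the median of Drd1, r was 0.72. Drd2 and Adora2a, which share a neuron class, had r = 0.90 and rho = 0.91 (permutation p = 5.00e-05 and 0.000120, adjusted 0.000792 and 0.00396), and r = 0.80 without 2 libraries. For the peptides Penk and Tac1, which belong to different classes, r was 0.87 and rho 0.90 (permutation p = 0.000100 and 0.000220, adjusted 0.000792 and 0.00396).

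All 36 pairs of the 9 genes had a positive r in the aged brain, with a median of 0.72 and a range of 0.43 to 0.91. An r above 0.5 was found for 35 of 36 pairs, against 4.08% of the pairs of one of these genes with any other gene tested. The second gene of a pair ranked 80th in the median among 24437 genes by its r with the first. By permutation, 31 pairs had an adjusted p below 0.05 for r and 20 for rho. The neuron classes were compared after the values were seen, so no test is given. The median r was 0.63 within the Drd1, Tac1 and Pdyn group (3 pairs), 0.85 within the Drd2, Adora2a and Penk group (3 pairs) and 0.76 between them (9 pairs).

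The covariation rested in part on a few brains. Without the 2 libraries farthest from the median of the first gene, the median r of the pairs was 0.43, the lowest was -0.036 and 16 pairs remained above 0.5. Leaving out library 35 alone gave a median r of 0.57. Within the 6 Cmpd60-treated brains the median r was 0.88, and within the 6 vehicle-treated brains it was 0.60, and neither value was tested. Pdyn was the loosest of the 9, with a median r of 0.63 with the others, and Adora2a the closest at 0.84.

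**Figure D2:**
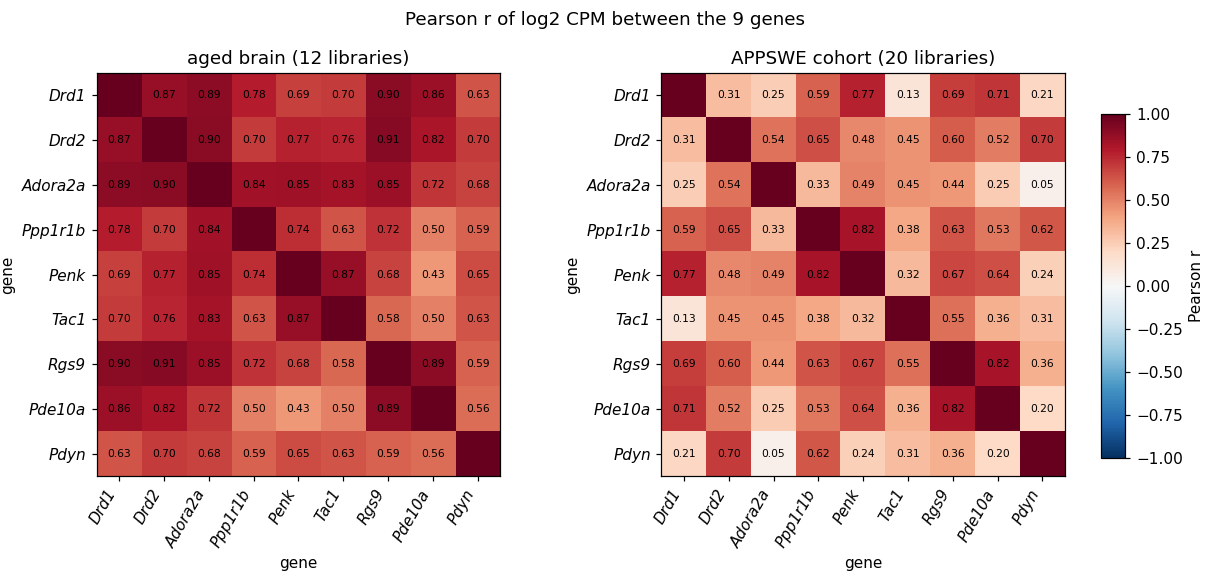
Pearson r of log2 CPM for each pair of the 9 genes in the 12 aged brains (left) and the 20 brains of the APPSWE cohort (right), on a colour scale from -1 to 1. All pairs are positive in both, with a median of 0.72 on the left and 0.49 on the right, and the palest cell is Adora2a with Pdyn in the APPSWE cohort.

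In the APPSWE cohort all 36 pairs of the 9 genes also had a positive r. Their median r was 0.49 in 20 libraries, with a range of 0.052 to 0.82. An r above 0.5 was found for 17 of 36 pairs, against 3.51% of pairs with any other gene, and the median rank was 1095.5 among 23272 genes. Without the 2 libraries farthest from the median of the first gene, the median r was 0.56, the lowest was 0.16 and 20 pairs were above 0.5, so the median r was lower than in the aged brain with all libraries and higher without 2. The difference between the cohorts was not tested. By permutation, 17 pairs had an adjusted p below 0.05 for r and 25 for rho. The closest pairs were Ppp1r1b with Penk and Rgs9 with Pde10a, both with r = 0.82 and with a permutation p of 1e-05, the smallest that 100000 permutations can give (adjusted 0.000180). Their rho was 0.81 in both (permutation p = 4.00e-05 and 6.00e-05, adjusted 0.00108 in both), and r was 0.72 and 0.77 without 2 libraries.

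Drd1 and Drd2 had r = 0.31 and rho = 0.39 in this cohort (permutation p = 0.192 and 0.0897, adjusted 0.239 and 0.104). Adora2a and Pdyn had the lowest value, r = 0.052 with rho = 0.24 (permutation p = 0.817 and 0.309, adjusted 0.817 and 0.317). Library s150, a littermate brain with vehicle, was above the cohort mean for all 9 genes, by 1.45-fold on average, and was the highest library for 5 of them. Library s157, a littermate brain with Cmpd60, was above it for all 9 by 1.21-fold, as was library s151, a littermate brain with vehicle, by 1.11-fold, and libraries s145 and s158 were below it for all 9, at 0.791-fold and 0.824-fold.

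Beside this shared movement, single genes left the others in the 5 libraries with few genes detected. Adora2a fell to 6.77 CPM in APPSWE vehicle library s146, from 192 reads, with an exact Poisson interval of 5.84 to 7.80 CPM for counting error. The other vehicle-treated APPSWE brains were at 23.6, 29.2, 29.7 and 42.2 CPM. In APPSWE Cmpd60 library s141, Adora2a was at 53.1 CPM, the highest value of the cohort. Drd2 was at 11.01 CPM in littermate Cmpd60 library s152, which also had the lowest Pdyn of the cohort at 18.1 CPM, while its Penk, at 199 CPM, was above the median of its group. Tac1 was at 18.5 CPM in APPSWE vehicle library s140, where Drd1 was at 46.02 CPM, the highest of its group.

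After the mean of each gene and of each library was removed, the SD of the 9 residuals was 0.297 to 0.718 on the log2 scale in these 5 libraries and 0.0965 to 0.260 in the other 15. This relation was noticed in these libraries and then tested in the same ones. Across the 20 libraries this SD correlated with the number of genes detected (r = -0.72, permutation p = 3.00e-05, adjusted over 2 cohorts 6.00e-05, rho = -0.82, permutation p = 5.00e-05, adjusted 0.000100), and r was -0.72 without the 2 libraries farthest from the median. In the 12 aged brains, r was -0.046 and rho -0.10 (permutation p = 0.891 and 0.749, adjusted 0.891 and 0.749), and r was 0.036 without 2 libraries. The median pair r was 0.68 in the 10 libraries with the most genes detected and 0.50 in the 10 with the fewest. The part of the number of genes detected in the covariation was not tested.

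**Figure D3:**
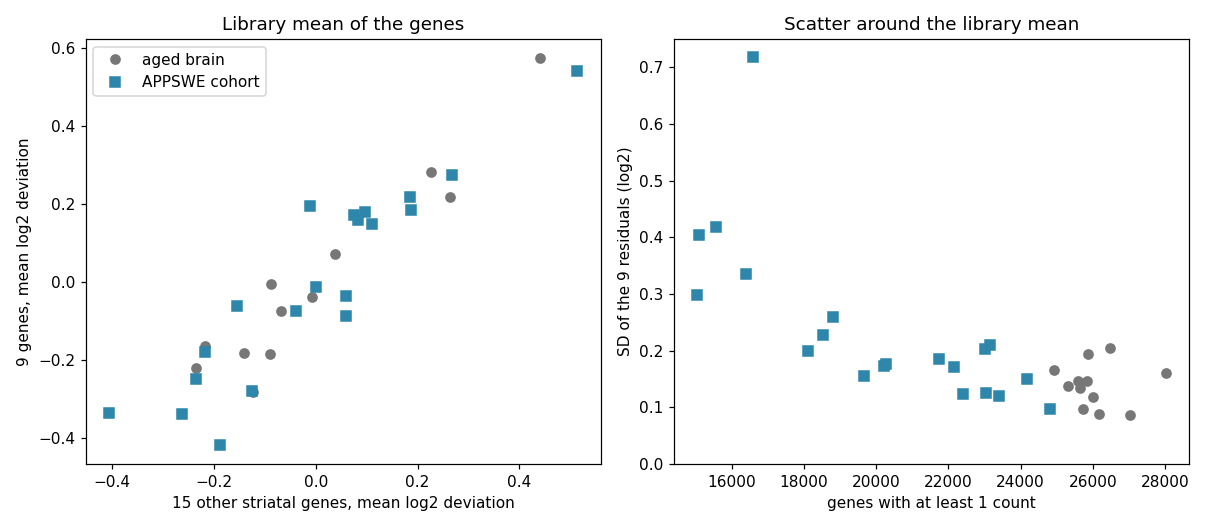
Left, mean log2 deviation of the 9 genes from their cohort mean (vertical axis) against that of 15 other striatal genes (horizontal axis), 1 point per brain library. Right, SD of the residuals of the 9 genes in log2 units against the count of genes detected in the library, where the 5 libraries below 17000 lie between 0.297 and 0.718.

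Other striatal genes moved with the 9 in both cohorts. The mean of 15 further genes of medium spiny neurons, which are no members, correlated with the mean of the 9 at r = 0.94 (rho = 0.83) in the aged brain and r = 0.92 (rho = 0.89) in the APPSWE cohort, as a description over 12 and 20 libraries. For 7 markers of striatal interneurons, r was 0.61 and 0.42, and for 17 genes of cAMP and DARPP-32 signalling, 0.62 and 0.63. Gng7 and Adcy5 are in both the signalling list and the list of 15. Markers of other regions followed less: r was -0.24 and 0.0097 for 7 genes of cortical glutamatergic neurons, 0.073 and 0.10 for 6 genes of the cerebellum, and 0.15 and -0.30 for 5 genes of the thalamus. For 4 oligodendrocyte genes, r was 0.48 in the aged brain and -0.15 in the APPSWE cohort, and for 4 pan-neuronal genes it was 0.020 and 0.084. It was 0.46 and 0.020 for 6 choroid plexus genes, 0.41 and 0.34 for 4 microglial genes, and 0.39 and -0.11 for 4 astrocyte genes.

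Over 14808 genes ranked by the smaller of 2 correlations with the mean of the 9, after centring on the groups, Pde1b, a phosphodiesterase that calcium and calmodulin activate, was among the closest, with r = 0.95 in 12 aged brains and 0.76 in 19 brains of the APPSWE cohort. It was followed by Rasd2, a small G protein of the striatum, at 0.88 and 0.73, and Lrrc10b at 0.91 and 0.72. The next genes were Dclk3 (0.70 and 0.70), Scn4b, a sodium channel subunit (0.76 and 0.67), and Dgat2 (0.74 and 0.67). They were followed by Tbc1d8 (0.81 and 0.67), Sh3rf2 (0.89 and 0.66) and Gng7, a G protein subunit (0.96 and 0.64). Of those named, Rasd2, Lrrc10b, Scn4b, Sh3rf2 and Gng7 are in the list of 15 other striatal genes.

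In the aged brain, Cmpd60 and vehicle groups overlapped for each of the 9 genes. Drd1 ranged from 23.2 to 42.5 CPM with Cmpd60 (median 27.6, n = 6) and from 23.1 to 33.8 CPM with vehicle (median 26.8, n = 6). Drd2 ranged from 21.2 to 40.2 CPM (median 24.1) against 19.1 to 32.6 CPM (median 23.3). The highest brain of both receptors was library 35, and Drd1 in 1 further Cmpd60-treated brain, library 33, was above every vehicle-treated brain. Penk ranged from 116 to 242 CPM (median 155.2) with Cmpd60 and from 146.02 to 218 CPM (median 159) with vehicle, so that both the lowest and the highest brain were Cmpd60-treated.

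The log2 changes of the 9 genes in the aged brain were between -0.040 (Penk) and 0.16 (Drd1), with a median of 0.10 beside 0.0072 over all genes tested. Drd1 had a log2 change of 0.16 (standard error, SE, 0.13) and an adjusted p of 0.634 in the edgeR quasi-likelihood test, the smallest of the 9. None of the 9 had an adjusted p below 0.05, where 0.0205% of all genes did, and 0 had an unadjusted p below 0.05 in edgeR, DESeq2 or limma-voom, where 13.8% of all genes did in edgeR. Of the 15 other striatal genes, 14 were higher with Cmpd60, 3 of them at an unadjusted p below 0.05 and 0 at an adjusted p below 0.05, among them Chrm4, a muscarinic receptor (log2 change 0.34, SE 0.09, adjusted p = 0.122 in edgeR) and Rasgrp2 (0.30, SE 0.08, adjusted p = 0.135). Markers of other regions also differed at an unadjusted p below 0.05: lower were 5 of 6 cerebellar, 3 of 5 thalamic and 3 of 4 olfactory bulb markers, and higher were 3 of 6 hypothalamic and 2 of 7 cortical ones. None had an adjusted p below 0.05, and their part in the values of the 9 genes was not tested.

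With the mean of the 15 other striatal genes as a covariate, the median standard error in the aged brain was 0.083 in place of 0.14. It was smaller for 9 of 9 genes. All 9 fold changes were then negative, from -0.21 (Penk) to -0.028, where 8 of 9 were positive before, and 0 had an adjusted p below 0.05 in edgeR. Rgs9 had the smallest p, at a log2 change of -0.19 (SE 0.07, adjusted p = 0.283 in edgeR). The covariate was itself higher in Cmpd60-treated brains for 14 of its 15 genes, and the sign of these small values changed with it. In the APPSWE cohort the median standard error fell less with this covariate. It was 0.193 in place of 0.204 for Cmpd60 in APPSWE brains and 0.175 in place of 0.192 in littermates. For genotype it was 0.177 in place of 0.192 under vehicle and 0.191 in place of 0.204 under Cmpd60. For the interaction it was 0.272 in place of 0.280.

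**Figure D4:**
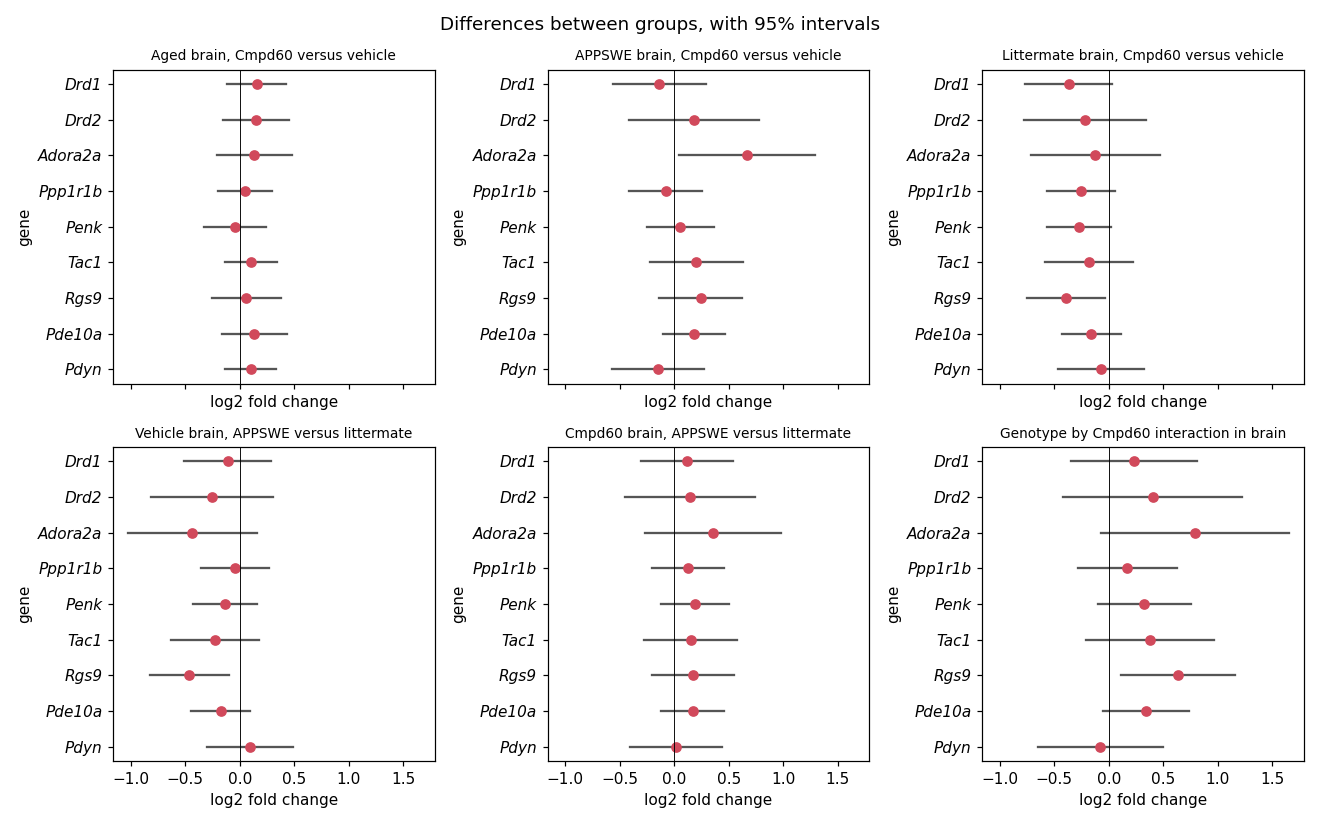
Log2 fold change of each gene with its 95% interval from edgeR in the 6 comparisons, with 0 marked by a line. The interval leaves out 0 for Adora2a in the APPSWE brain with Cmpd60 and for Rgs9 in 3 panels, and no adjusted p was below 0.05.

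In APPSWE brains, Adora2a was the gene with the largest difference between Cmpd60 and vehicle. It was at 30.5, 40.7, 42.9 and 53.1 CPM with Cmpd60 and at 6.77, 23.6, 29.2, 29.7 and 42.2 CPM with vehicle. The groups overlapped, with 2 of 4 Cmpd60-treated brains above every vehicle-treated brain, and the lowest brain was library s146. The highest was library s141, and both are among the 5 libraries with few genes detected. The mean was 41.8 ± 9.26 CPM (SD, n = 4) against 26.3 ± 12.9 CPM (SD, n = 5), a log2 change of 0.67 (SE 0.30, adjusted p = 0.493 in edgeR). Without library s146 the log2 change was 0.42 (SE 0.23, adjusted p = 0.651), and without all 5 libraries with few genes detected it was 0.26 (SE 0.24, adjusted p = 0.738). With library s141 left out, 0 of the 9 genes had an unadjusted p below 0.05 in edgeR. The same held without s143, s145, s146 or s147.

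The log2 changes of the 9 genes were between -0.15 (Pdyn) and 0.67 in this comparison, 6 of them positive, with a median of 0.18 beside 0.031 over all genes. An unadjusted p below 0.05 was found for 1 of 9, Adora2a, where 9.46% of all genes had one, and an adjusted p below 0.05 for 0 of 9, where 0% of all genes did. DESeq2 and limma-voom also called 0 of 9 after adjustment and 1 of 9 before it. Library s139, at 44.9 CPM of Adora2a, lay above every vehicle-treated APPSWE brain and within the range of the Cmpd60-treated ones. As a vehicle brain it gave a log2 change of 0.51 for Adora2a, and as a Cmpd60-treated brain 0.69. Olfactory bulb markers were higher in 4 of 4 (2 at an unadjusted p below 0.05) and microglial markers in 4 of 4 (1). Hypothalamic markers were lower in 6 of 6 (1), choroid plexus markers in 6 of 6 (1) and oligodendrocyte markers in 4 of 4 (2). The part of these markers was not tested. Of the other striatal genes, 13 of 15 were higher.

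In littermate brains, all 9 genes had a negative log2 change with Cmpd60, from -0.39 (Rgs9) to -0.073 (Pdyn), with a median of -0.22 beside 0.021 over all genes. Of all genes tested, 47.1% were lower. Since the striatal genes moved together between libraries, counts of their directions, here and in the other comparisons, are not separate results. Rgs9 was at 32.9, 34.3, 36.7, 41.9 and 47.2 CPM with Cmpd60 and at 39.3, 40.4, 48.7, 61.5 and 63.2 CPM with vehicle. The groups overlapped, and the highest of the vehicle-treated brains were libraries s150 and s155. Library s155 is among the 5 libraries with few genes detected. The mean was 38.6 ± 5.89 CPM (SD, n = 5) against 50.6 ± 11.3 CPM (SD, n = 5), a log2 change of -0.39 (SE 0.18, adjusted p = 0.999 in edgeR). It was -0.31 without library s150 and -0.30 without library s155, and from -0.47 to -0.23 over all alternatives. Without all 5 libraries with few genes detected, 0 of the 9 genes had an unadjusted p below 0.05 in edgeR. The same held without s150, s152, s155, s156 or s158. Without s154, 4 of the 9 had one, where 716 of 23096 genes tested did. It was 3 of the 9 without s149 (1073 of 22976 genes) and without s157 (1019 of 23013). With the 15 other striatal genes as a covariate, 6 of the 9 values were negative and 3 positive, with a median of -0.044, and 0 had an unadjusted p below 0.05 in edgeR. Of those 15 genes themselves, 11 were lower, 2 of them at an unadjusted p below 0.05.

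Drd1 had a log2 change of -0.37 (SE 0.19) and Penk of -0.27 (SE 0.14) in the littermates. Drd1 was at 24.2, 26.7, 27.5, 29.7 and 31.3 CPM with Cmpd60 and at 23.5, 27.8, 35.6, 43.3 and 49.6 CPM with vehicle, so the vehicle-treated brains covered the whole range of the Cmpd60-treated ones. With all 19 libraries, only Rgs9 of the 9 genes had an unadjusted p below 0.05 in edgeR, where 3.67% of all genes had one. For an adjusted p below 0.05 it was 0 of 9, where 0% of all genes had one. DESeq2 called 0 of 9 after adjustment and 1 before it, and limma-voom 0 and 2.

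Between the genotypes under vehicle, Rgs9 again had the smallest p. It was at 24.3, 33.2, 39.7, 41.4 and 44.9 CPM in APPSWE brains, against the littermate values given above, which this comparison shares with the last one. The log2 change was -0.46 (SE 0.18, adjusted p = 0.509 in edgeR). The groups overlapped in part, with 36.7 ± 8.12 CPM (SD, n = 5) against 50.6 ± 11.3 CPM (SD, n = 5). The log2 change was -0.35 without APPSWE library s145 and -0.37 without all 5 libraries with few genes detected. Over all alternatives it was from -0.55 to -0.30. Without s145, and without all 5 libraries, 0 of the 9 genes had an unadjusted p below 0.05 in edgeR. Without s144 it was 2 of the 9 (2031 of 23127 genes tested), as it was without s154 (1865 of 23096).

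Of the 9 genes, 8 were lower in APPSWE brains under vehicle, with a median log2 change of -0.18 beside -0.011 over all genes. For Adora2a it was -0.44 (SE 0.29), and Pdyn was the gene with a positive value, 0.093 (SE 0.19). An unadjusted p below 0.05 was found for 1 of 9, where 8.67% of all genes had one, and an adjusted p below 0.05 for 0 of 9, where 0.00862% of all genes did. DESeq2 and limma-voom called 0 of 9 after adjustment and 1 before it. With the 15 other striatal genes as a covariate, 5 values were positive and 4 negative, with a median of 0.049. Of those 15 genes, 12 were lower, 2 of them at an unadjusted p below 0.05. Olfactory bulb markers were lower in 3 of 4 (1 at that threshold) and microglial markers in 4 of 4 (0). Cerebellar markers were higher in 5 of 6 (1), pan-neuronal ones in 3 of 4 (1) and oligodendrocyte ones in 4 of 4 (0). The part of these markers was not tested.

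Between the genotypes under Cmpd60, all 9 log2 changes were positive, from 0.016 (Pdyn) to 0.36 (Adora2a), with a median of 0.15 beside -0.0012 over all genes. Pde10a was at 157, 204, 211 and 250 CPM in APPSWE brains and at 171, 177, 181, 193 and 193 CPM in littermates. The lowest brain and the 3 highest were APPSWE, and the log2 change was 0.17 (SE 0.14, adjusted p = 1 in edgeR). An unadjusted p below 0.05 was found for 0 of 9 by edgeR, DESeq2 and limma-voom, where 1.34% of all genes had one in edgeR, and an adjusted p below 0.05 for 0 of 9, where 0% of all genes did. With the other striatal genes as a covariate, 3 values were positive and 6 negative, with a median of -0.028. Choroid plexus markers were lower in 6 of 6 (1 at an unadjusted p below 0.05), and their part was not tested.

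The interaction asks whether Cmpd60 changed a gene differently in APPSWE brains than in littermates. It uses the same libraries as the 4 comparisons above. The difference of the log2 changes was positive for 8 of 9 genes, with a median of 0.34 beside 0.014 over all genes. It was 0.63 for Rgs9 (SE 0.25, adjusted p = 0.944 in edgeR), 0.79 for Adora2a (SE 0.42, adjusted p = 0.9999) and 0.34 for Pde10a (SE 0.19, adjusted p = 0.9999). An unadjusted p below 0.05 was found for 1 of 9, Rgs9, where 5.09% of all genes had one, and an adjusted p below 0.05 for 0 of 9, where 0% of all genes did. The unadjusted count in edgeR was 0 of 9 without s143 (917 of 22828 genes tested). It was 3 without s157 (1034 of 23013), 4 without s154 (1144 of 23096) and 1 or 2 without any other single library. DESeq2 called 0 of 9 after adjustment and 1 before it, and limma-voom 0 and 2. In the same interaction, choroid plexus markers were lower in 6 of 6 (2 at an unadjusted p below 0.05) and oligodendrocyte markers in 4 of 4 (1). Olfactory bulb markers were higher in 3 of 4 (2) and microglial markers in 4 of 4 (1), and the part of these markers was not tested.

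With the 15 other striatal genes as a covariate, the interaction of Rgs9 was 0.27 (SE 0.24) and that of Adora2a 0.33 (SE 0.41), and 5 of the 9 values were negative. Under the same covariate, the change with Cmpd60 in APPSWE brains was positive for 4 and negative for 5 of the 9 genes, with a median of -0.14 in place of 0.18. There Ppp1r1b had a log2 change of -0.34 (SE 0.09, adjusted p = 0.597 in edgeR). Of the other striatal genes, 14 of 15 had a positive interaction, and the smallest p was that of Lrrc10b, at 0.97 (SE 0.37, adjusted p = 0.944 in edgeR). In the groups of the APPSWE cohort the log2 difference, chosen after the values were seen, between the means of the Drd2 class (Drd2, Adora2a, Penk) and the Drd1 class (Drd1, Tac1, Pdyn) ranged from -0.13 to 1.11 per library, and the lowest value was that of library s146 alone. Without it the range began at 0.28. In the aged brain it was 0.65 ± 0.10 with Cmpd60 and 0.69 ± 0.15 with vehicle (SD, n = 6 each).

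Genes of the pathways around the 9 members were examined from fixed lists. Of 17 genes of cAMP and DARPP-32 signalling, 0 had an adjusted p below 0.05 in the 6 comparisons. In the aged brain 11 were higher and 6 lower with Cmpd60, with Arpp19 at a log2 change of 0.20 (SE 0.08, adjusted p = 0.280 in edgeR) and Arpp21 at 0.16 (SE 0.07, adjusted p = 0.319). Of 11 genes of peptide receptors and processing, 0 had an adjusted p below 0.05 either. In APPSWE brains with Cmpd60, Scg5, a chaperone of the prohormone convertase PC2, had a log2 change of -0.91 (SE 0.24). That of Pcsk1, the gene of PC1, was 0.62 (SE 0.19), and each had an adjusted p of 0.444 in edgeR. In littermates, Scg5 was also lower with Cmpd60. It was the 1 gene of the 11 with an unadjusted p below 0.05 there, where 3.67% of all genes had one. Neither gene was examined without the 5 libraries with few genes detected. Of 6 genes of dopamine neurons, which project to the striatum, 6 were lower in the aged brain and 0 passed an unadjusted p of 0.05.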

How the data were processed

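The authors trimmed reads with Trimmomatic 0.32, aligned them with HISAT2 2.1.0, counted them per Ensembl gene with HTSeq 0.11.0 and deposited the counts without normalization. Counting took account of read direction. The genome build was not given in the sources used here. The 5 summary lines of each file, 15.4% to 21.9% of reads in the brain libraries, were left out. Names were matched through RefSeq. Counts were scaled by TMM. For tests, edgeR 4.0.16 (quasi-likelihood, R 4.3.3) was run on genes that exceeded 2 counts in 3 or more libraries, with Benjamini-Hochberg adjustment over all of them. The 12 aged brains and the 19 APPSWE cohort libraries were fitted separately. The coefficient of variation between libraries that edgeR estimated over all genes was 0.114 and 0.729, so the spread was larger in the APPSWE cohort. CPM rest on TMM-scaled totals, and a prior count of 2 was added before taking log2. Exon lengths came from GENCODE vM1. A count of 0 in a brain library allows up to 0.0522 to 0.120 CPM, and PCR copies cannot be told from molecules.

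Correlations of log2 CPM were tested with 100000 permutations of libraries, two-sided. Alternatives were DESeq2 1.42.0, limma-voom (limma 3.58.1), DESeq2 size factors, other filters, 2 covariates, fewer libraries and both placements of library s139. The labels do not say that libraries came from separate mice, so p-values measure the spread between libraries. Members and lists were chosen with earlier results of these data known. The promoter motifs and printed promoters, the 17000-gene limit, the measure of genes over 2-fold off, the neuron-class split and the relation of residual SD to genes detected were chosen after the data were seen. Named are the members, the 10 most similar genes except 1 that is not reported here, and up to 4 genes per list with the smallest p. The tests were also run on simulated counts, and the outcome is not given here. Those counts were drawn for each gene on its own, so they did not hold the shared movement of the striatal genes. The kidney labels contradict each other on treatment, so the kidney was used only over all libraries.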

Additional observations from a re-analysis of the deposited data

Results flagged for a closer look

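In 54 groups of 4 to 6 libraries, each group of 1 gene, 3 held a library far from the others. This share is near the about 1 in 20 that chance gives. The genes moved together, so the groups are not independent. Pdyn was at 44.1 CPM in Cmpd60-treated aged library 35, with the next highest at 31.2 CPM. Ppp1r1b was at 406 CPM in littermate Cmpd60 library s157 (next 259 CPM) and at 474 CPM in littermate vehicle library s150 (next 306 CPM). These 3 libraries were above their cohort mean for all 9 genes. The part of regional composition in them was not tested.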

How the results depend on the processing

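The number of the 9 genes with an adjusted p below 0.05 was 0 in each of the 6 comparisons under every alternative run, and the smallest adjusted p over 1170 alternative values was 0.283, for Rgs9 in the aged brain with the other striatal genes as a covariate. Of these values, 1107 kept their direction and 63 changed it, in 33 of 54 pairs of gene and comparison, none with an adjusted p below 0.05. The median pair r was 0.575 to 0.783 in the aged brain and 0.420 to 0.559 in the APPSWE cohort when 1 library was left out, lowest without library 35 and library s150. It was 0.880 within the Cmpd60-treated aged brains, an alternative added after the data were seen, as were the 5 libraries with few genes detected and the split by genes detected. Size factors, prior count and centring on groups gave 0.714 to 0.732 and 0.475 to 0.487.

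Over all genes, the number with an adjusted p below 0.05 in the aged brain was 5 in edgeR, 429 in DESeq2, 2 in limma-voom, 102 without a filter, 0 with genes detected and 1 with the striatal genes as covariate, and 1 to 372 when 1 library was left out, highest without vehicle library 29. In the APPSWE cohort it was, for Cmpd60 in APPSWE brains, 0 in edgeR, 22 in DESeq2, 8 without a filter, 1 with only the 2 groups and 3 without the 5 libraries with few genes detected. For Cmpd60 in littermates these were 0, 4, 2, 0 and 1. For genotype under vehicle they were 2, 20, 3, 3 and 7. For genotype under Cmpd60 it was 0, and 5 without the 5 libraries. For the interaction it was 0, 4 in DESeq2 and 2 without a filter. Leaving out 1 library gave up to 2 in littermates (without s152), 1 to 4 for genotype under vehicle (4 without s151) and up to 1 for the interaction (without s152 or s156). No paired analysis was possible because the groups share no replicate numbers.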
